A study of Mus musculus with 12 samples.

Results

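Srebf1, Thrsp, Pklr, Fasn, Elovl6 and Scd1, which encode the lipogenic factor SREBP-1 and proteins of fatty acid synthesis that act with it, are described here in the livers of PXR-deficient mice on a high-fat diet (HFD) or chow. They are 6 of the 336 rows of the authors' deposited HFD-against-chow table, taken by symbol, and 0 of the 6 are among the 33 rows of the authors' PCN-against-vehicle table. The genes were chosen by the diet contrast itself, since that table lists only genes that passed the authors' test, and the set was assembled with those results known. By normalized count, all 6 were higher in every HFD mouse than in every chow mouse, as were 99.5% of the table's higher rows. These differences are therefore given as a description, and no test of them is offered as evidence.

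RNA-seq libraries came from the livers of 12 mice, 3 in each of 4 groups. All were C57BL/6N mice deficient in PXR, the pregnane X receptor, a nuclear receptor that responds to foreign compounds, so that even the chow controls lack it and no wild-type liver enters the comparison. Mice were 6 weeks old when they were placed on regular chow or on HFD for 18 weeks, which makes them 24 weeks old at the end of the feeding period. The chow mice (numbers 670, 695 and 707) and the HFD mice (659, 669 and 696) carry no treatment in the labels. A further pair of HFD groups received vehicle with 30% DMSO, or the PXR ligand PCN at 50 mg/kg, by daily intraperitoneal injection for 4 days. The values of the 6 genes in those injected mice are not analysed here. The labels state neither the allele that removes PXR nor the composition of the HFD.

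SREBP-1, the product of Srebf1, is a membrane-bound transcription factor that is cut and released to the nucleus to switch on the genes of fatty acid synthesis, and in liver its SREBP-1c form is raised by insulin and by the oxysterol receptor LXR. A second factor, ChREBP, responds to glucose metabolites and acts on an overlapping set of genes that includes Pklr, Fasn and Thrsp. Along the pathway, Pklr encodes liver pyruvate kinase, the last step of glycolysis. Fasn encodes fatty acid synthase, which builds palmitate, Elovl6 lengthens palmitate to stearate, and Scd1 places the double bond that turns stearate into oleate. Thrsp encodes Spot 14, a small nuclear and cytosolic protein that promotes lipogenesis.

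The upstream sequences of 4 of the genes are shown so that their motif matches can be compared. Within the 250 bases searched, Srebf1 and Fasn held a match to a motif of SREBP-1 and Pklr to one of ChREBP. Thrsp held only the CCAAT box there, a motif of many promoters. Sequence further upstream was not searched, so elements that lie there could not be found. RefSeq (GRCm38.p6) windows were found for 5 of the 6 genes, 8 windows in all (3 for Srebf1, 2 for Pklr and 1 each for Thrsp, Fasn and Elovl6), and the 250 bases before each transcript start were searched on both strands. Scd1 had no entry. Capitals mark the motif matches. The first motif was TCACCC, the core of a sterol response element. The NF-Y box was CCAAT, which appears as ATTGG when it lies on the opposite strand. The GC box was searched as GGGCGG. The TATA box was searched as TATAAA. A carbohydrate response element was searched as the half-site CACGNG followed after 5 bases by its mirror CNCGTG, and the bases between them are in capitals too. Each sequence runs 5′ to 3′ on the gene's own strand and ends at the base before the transcript start. They are Srebf1 at chr11:60210472-60210581 (minus strand), Thrsp at chr7:97417551-97417720 (minus strand), Pklr at chr3:89136433-89136622 (plus strand) and Fasn at chr11:120824548-120824697 (minus strand).
Srebf1: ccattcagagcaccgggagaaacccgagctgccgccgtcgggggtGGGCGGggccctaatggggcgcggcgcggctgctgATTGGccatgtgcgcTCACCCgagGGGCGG
Thrsp: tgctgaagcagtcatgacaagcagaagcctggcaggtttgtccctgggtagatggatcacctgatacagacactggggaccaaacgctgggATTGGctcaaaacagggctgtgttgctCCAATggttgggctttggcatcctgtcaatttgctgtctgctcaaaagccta
Pklr: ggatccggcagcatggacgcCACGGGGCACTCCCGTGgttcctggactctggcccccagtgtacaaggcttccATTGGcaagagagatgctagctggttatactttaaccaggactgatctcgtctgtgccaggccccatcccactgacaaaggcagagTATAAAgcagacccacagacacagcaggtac
Fasn: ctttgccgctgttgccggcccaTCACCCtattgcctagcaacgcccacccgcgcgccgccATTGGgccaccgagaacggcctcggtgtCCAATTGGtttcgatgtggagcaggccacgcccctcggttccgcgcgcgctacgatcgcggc

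The TCACCC match stood at -15 to -10 before the start of Srebf1 that lies furthest downstream, the start of the SREBP-1c transcript, and at -128 to -123 before Fasn. These letters occur in 13.8% of the 32851 windows of all genes, so a match by itself is common. The longer form TCACNCCAC occurred in 1.05% of windows and in none of the 8, and the E-box CACGTG occurred in 6.02% and in none of the 8. The half-sites set 5 bases apart were found only before the second Pklr start, at -170 to -154, and they occur in 13 of the 32851 windows (0.0396%). That Pklr window also had a CCAAT box on the opposite strand at -117 to -113 and a TATA box at -31 to -26. CCAAT boxes occurred before Thrsp at -52 to -48 and, on the opposite strand, at -79 to -75. Before Fasn they occurred at -90 to -86, -62 to -58 and -59 to -55, of which the last 2 overlap. CCAAT is in 33.8% of all windows, GGGCGG in 32.7% and TATAAA in 12.4%. The Elovl6 window and the first Pklr window held none of the motifs. Letters in these windows are a description only: the motif set was chosen with these promoters in view, and binding was not measured.

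**Figure D1:**
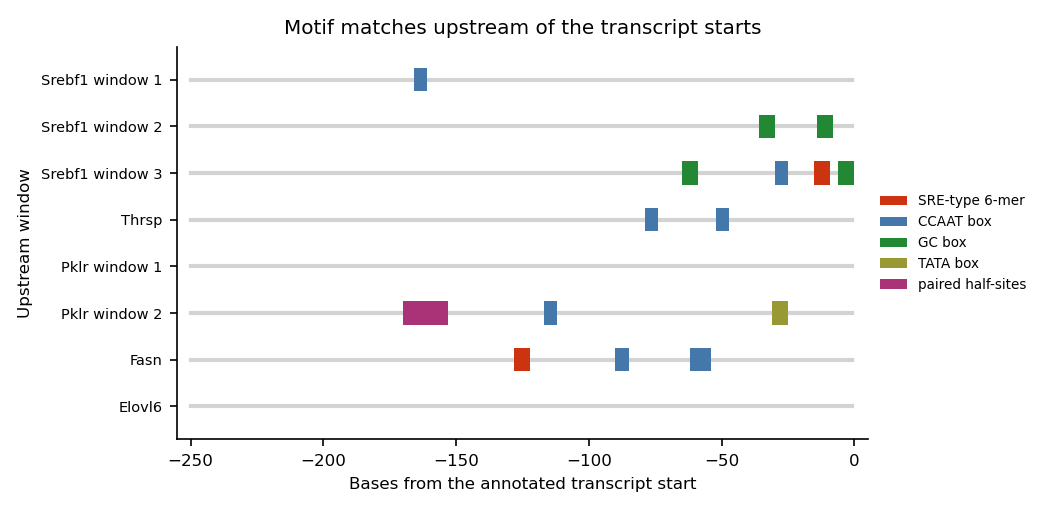
Motif matches in the 250 bases upstream of each annotated transcript start of the 5 genes with a window. The x axis is the distance in bases from the start, grey lines are the windows, and coloured boxes are the matches on either strand: the paired half-sites appear in 1 of the 8 windows, and the Elovl6 window and the first Pklr window are empty.

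The depth of these libraries is known only through the listed genes, whose raw counts summed to between 547431 and 920106 per mouse. Counts were divided by the authors' own size factors, recovered from their table (0.829 to 1.14), and are called normalized counts. The diet table holds 215 genes that were higher and 121 that were lower on HFD, and their smallest deposited log2 fold change in size was 0.6 and their largest adjusted p 0.0474. It was cut from about 24990 tested genes, of which the higher rows make up 0.86%, so the 6 of 6 members found there reflect how they were chosen. Nearest to the table's limits stood Pklr, with an adjusted p of 0.04281 in the authors' deposited table, and Scd1, with a log2 fold change of 0.67 there. Genes just outside the limits are not analysed here. None of the 6 hepatocyte markers listed (Alb, Apoa1, Apoa2, Ttr, Serpina1a and Fgb) is among the rows, so the tissue label was not checked against them.

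Among the regulators, Srebf1 (ENSMUSG00000020538, chr11:60199089-60222581, minus strand, GRCm38) had normalized counts of 448.5, 813 and 584 in chow mice 670, 695 and 707 and of 1477, 1849 and 2017 in HFD mice 659, 669 and 696. The groups did not overlap, and the lowest HFD mouse stood 1.82-fold above the highest chow mouse. Group means were 615 ± 184 on chow and 1781 ± 277 on HFD (SD, n = 3), a ratio of 2.89. In the authors' deposited table its log2 fold change was 1.32 (SE 0.2), with an adjusted p of 3.39e-08, rank 27 of the 336 rows. In whole liver tissue, a change in the RNA per hepatocyte and a change in the share of cells that carry the RNA cannot be told apart, here and for the other genes. Counts per gene do not separate the SREBP-1a and SREBP-1c transcripts, and Rai1 overlaps the locus on the other strand. Whether counting used strand is not given in the sources used here.

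Thrsp (ENSMUSG00000035686, chr7:97412938-97417730, minus strand) showed the widest gap between diets and also the widest spread among chow mice. Its normalized counts were 107.5, 761 and 181 in chow mice 670, 695 and 707 and 3796, 2763 and 3978 in HFD mice 659, 669 and 696. Mouse 695 stood 7.08-fold above mouse 670 on the same chow, while the lowest HFD mouse was still 3.63-fold above mouse 695. Means were 349.9 ± 358 and 3513 ± 655 (SD, n = 3), a ratio of 10.04, which became 24.3 without chow mouse 695. The authors' deposited table gives a log2 fold change of 0.95 (SE 0.27) with an adjusted p of 0.03029, where the log2 ratio of the means was 3.33. Among the 215 higher rows Thrsp ranked 12 by the ratio of means and 105 by the deposited log2 fold change. How the deposited fold change was estimated is not given in the sources used here.

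Pklr (ENSMUSG00000041237, chr3:89136142-89146784, plus strand), the glycolytic member, had normalized counts of 760, 1923 and 1579 in the chow mice and 3557, 2169 and 2964 in the HFD mice, in the order of mice above. Chow mouse 670 was low, and HFD mouse 669 stood only 1.13-fold above chow mouse 695, so the groups were separate by a narrow margin. The means of 1421 ± 597 and 2897 ± 696 (SD, n = 3) gave a ratio of 2.04. The deposited adjusted p of 0.04281 ranked 331 of the 336 rows. Hcn3 overlaps the Pklr locus on the other strand.

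Of the 3 enzymes that make and modify the fatty acid chain, Fasn (ENSMUSG00000025153, chr11:120805846-120824547, minus strand) had normalized counts of 3751, 4818 and 3362 in the chow mice and 10191, 5351 and 7232 in the HFD mice. The HFD mice spread 1.90-fold among themselves, and the lowest of them, 669, stood 1.11-fold above the highest chow mouse. In raw counts that pair turned, with 4971 reads in HFD mouse 669 and 5019 in chow mouse 695. Means were 3977 ± 754 and 7591 ± 2440 (SD, n = 3), a ratio of 1.91, with an adjusted p of 0.01131 in the authors' deposited table.

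Elovl6 (ENSMUSG00000041220, chr3:129532355-129638495, plus strand) was even on chow and uneven on HFD. The chow mice had normalized counts of 1107, 917 and 1112, and the HFD mice had 2154, 1158 and 2813. HFD mouse 669 was thus 1.04-fold above the highest chow mouse, while mouse 696 was 2.43-fold above mouse 669. In raw counts the groups overlapped here too, with 1076 reads in HFD mouse 669 and 1133 in chow mouse 670. Means were 1045 ± 111 and 2042 ± 833 (SD, n = 3), a ratio of 1.95, with a deposited adjusted p of 0.0325. An antisense gene, Gm35986, overlaps Elovl6.

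Scd1 (ENSMUSG00000037071, chr19:44394451-44407709, minus strand) was by far the most abundant of the 6 and the steadiest between mice. Its normalized counts were 292079, 286611 and 322750 in the chow mice and 497068, 418023 and 563628 in the HFD mice, with no overlap and a lowest HFD mouse 1.30-fold above the highest chow mouse. Means were 300480 ± 19479 and 492906 ± 72892 (SD, n = 3), a ratio of 1.64, the smallest of the 6. The authors' deposited adjusted p was 0.0009697, rank 115 of the 336 rows. Scd1 has closely related paralogs (Scd2, Scd3 and Scd4), and how reads shared between them were counted is not given in the sources used here.

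**Figure D2:**
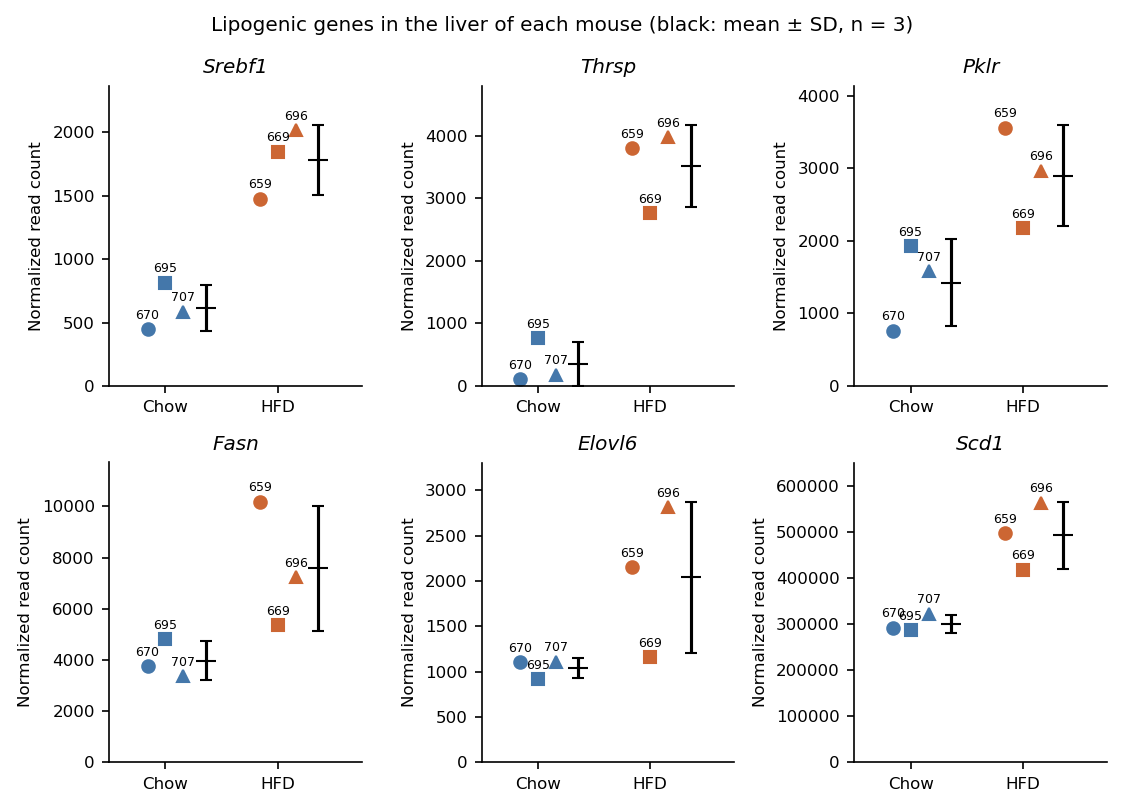
Normalized read counts (y axis, linear, a scale of its own in each panel) of the 6 genes in each chow (blue) and HFD (orange) mouse, numbered by mouse. Black bars are the mean ± SD of 3 mice, and the y axis starts at 0, which cuts the lower end of the chow Thrsp bar. Every HFD mouse lies above every chow mouse in each panel, with the narrowest gap in Elovl6 and the widest in Thrsp.

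All 6 members were separate between the diets, as were 214 of the 215 higher rows (99.5%), so this separation is what a row of the table has in general. The median ratio of the 6 was 2.0 and that of the 215 higher rows was 2.31. The log2 ratio of the means was larger than the deposited log2 fold change in each of the 6 genes, by the most in Thrsp. Refitted tests on the listed rows drew the line elsewhere. Only listed rows were fitted, so the other tested genes could not be called. edgeR's quasi-likelihood test, scaled by the authors' size factors and adjusted for all tested genes, called 0 of the 6. It called 8 of the 211 higher rows it fitted, 0.032% of the tested genes. An unadjusted p under 0.05 was found in 6 of 6, as in all 211 of the higher rows it fitted, which the selection of the rows leads to. Its adjusted p was 0.118 for Srebf1 and 0.177 for Thrsp, and between 0.568 and 0.901 for the others. DESeq2 refitted with the same size factors called Srebf1 (adjusted p = 1.06e-05) and Thrsp (adjusted p = 0.0139). It called 105 of the 215 higher rows, 0.42% of the tested genes. edgeR with TMM over the listed rows alone also called Srebf1 and Thrsp. It called 67 of the 211 higher rows it fitted, 20.3% of all fitted rows. TMM, which centres on rows selected for having changed, moved the log2 ratios by a median of -0.64 over all rows. With it 2 of the 6 genes, Srebf1 and Thrsp, and 46.5% of the higher rows were separate between the diets, and the ratios of Pklr, Fasn and Elovl6 became 1.31, 1.22 and 1.25.

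**Figure D3:**
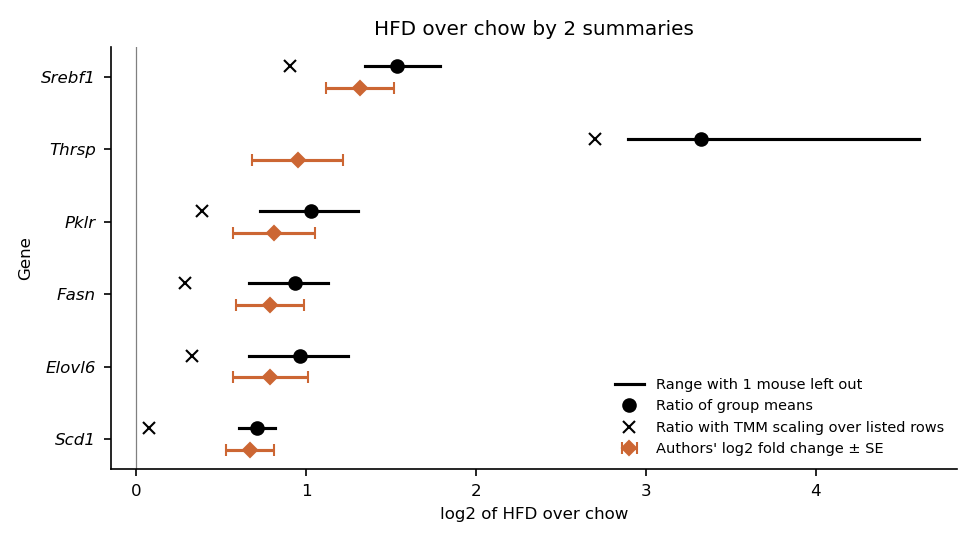
Log2 of HFD over chow (x axis) for each gene (y axis) by the ratio of group means (black points, with the range when 1 mouse is left out), by the same ratio under TMM scaling over the listed rows (crosses) and by the authors' deposited log2 fold change ± SE (orange). All summaries lie above 0, and the black point lies to the right of the orange one in each gene, by the most in Thrsp (3.33 against 0.95).

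Per kilobase of exon, which allows levels to be compared between genes, the order on HFD was Scd1, Thrsp, Pklr, Fasn, Elovl6, Srebf1. The normalized counts per kilobase on HFD were 100758 ± 14900 for Scd1, 1605 ± 299 for Thrsp, 895 ± 215 for Pklr, 693 ± 223 for Fasn, 317.5 ± 130 for Elovl6 and 316 ± 49.1 for Srebf1 (SD, n = 3). Pklr and Fasn overlapped between mice, as did Elovl6 and Srebf1, and the other neighbours in that order did not. On chow the levels per kilobase were 61423 ± 3982 for Scd1, 439 ± 185 for Pklr, 363 ± 68.9 for Fasn, 162.5 ± 17.3 for Elovl6, 159.9 ± 164 for Thrsp and 109.2 ± 32.7 for Srebf1. By mean, Thrsp stood below Pklr and Fasn on chow and above both on HFD. Fasn and Elovl6 were separate on chow too, while Pklr and Fasn overlapped. Thrsp on chow overlapped Pklr, Fasn, Elovl6 and Srebf1, so its place in the chow order is not set beyond the spread between mice.

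Ratios between 2 of the genes within a mouse use raw counts and do not depend on any scaling of the libraries. Thrsp per Srebf1 was 0.240, 0.936 and 0.310 in the chow mice and 2.57, 1.49 and 1.97 in the HFD mice. The groups were separate, so that by counts Thrsp differed between diets by more than Srebf1 did. The deposited log2 fold changes had the other order, 0.95 (SE 0.27) for Thrsp and 1.32 (SE 0.2) for Srebf1. Scd1 per Srebf1 went the other way, with 651, 352 and 553 reads of Scd1 per read of Srebf1 on chow and 337, 226 and 279 on HFD, again with no overlap. Among the enzymes the proportions overlapped between diets. Elovl6 per Fasn averaged 0.272 on both diets, with SDs of 0.0730 and 0.101, and Scd1 per Fasn was 77.8 ± 18.3 on chow and 68.3 ± 16.9 on HFD (n = 3). Fasn per Pklr was 3.19 ± 1.52 on chow and 2.59 ± 0.238 on HFD. Pklr, Fasn and Elovl6 per Srebf1 also overlapped between the diets, with mean ratios on HFD that were 0.747, 0.667 and 0.633 of those on chow.

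The 6 genes did not share 1 order of mice. Among chow mice, 695 was highest for Srebf1, Thrsp, Pklr and Fasn but lowest for Elovl6 and Scd1, and 670 was lowest for Srebf1, Thrsp and Pklr. Among HFD mice, 669 was lowest for 5 of the 6, and for Srebf1 the lowest was 659. Mouse 696 was highest for Srebf1, Thrsp, Elovl6 and Scd1, and mouse 659 for Pklr and Fasn. Over the 215 higher rows, mouse 695 was the highest chow mouse in 43.3%, mouse 670 the lowest in 46%, mouse 669 the lowest HFD mouse in 34.9% and mouse 696 the highest in 23.7%. With 3 mice a group, no correlation between genes across mice is given.

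Spread between mice of the same diet also set the genes apart. The pooled SD of the log2 normalized count within a diet was 1.05 for Thrsp, larger than in 330 of the 336 rows (98.2%), and 0.17 for Scd1, with 46 rows (13.7%) below it. Srebf1 (0.35) and Fasn (0.38) were nearer to the median of all rows, 0.31. Elovl6 (0.48) was above 74.4% of the rows and Pklr (0.56) above 82.4%. These pooled values join diets that were not alike. The SD of the normalized count of Thrsp was 102% of its mean on chow and 18.7% on HFD. For Elovl6 the SD was 10.6% of the mean on chow and 40.8% on HFD. The mean absolute difference between 2 genes' log2 profiles over the 6 mice, each profile set to 0 at its chow mean, was smallest for Elovl6 with Scd1 and for Fasn with Scd1 (0.24 each). It was largest for Thrsp with Scd1 (2.12), and Thrsp was at least 1.52 from each other member.

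**Figure D4:**
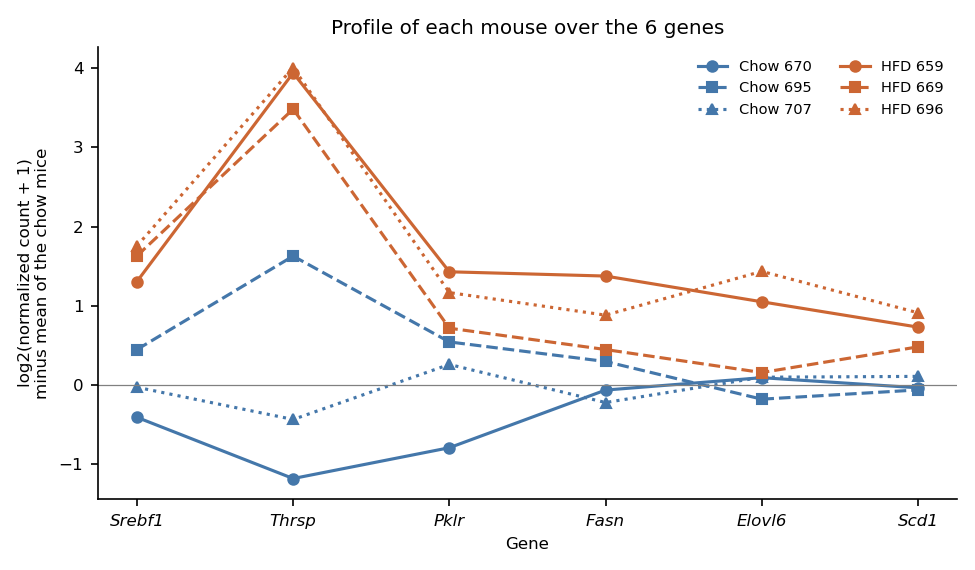
Log2 of the normalized count plus 1, minus its mean over the chow mice (y axis), for the 6 genes (x axis) in each mouse (1 line per mouse, chow in blue, HFD in orange). HFD mouse 669 (dashed orange) is lowest of its group from Thrsp to Scd1, and chow mouse 695 (dashed blue) is highest of its group from Srebf1 to Fasn and lowest in Elovl6 and Scd1.

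Other rows of the diet table were ranked by the same distance, here from the mean profile of the 6 genes. The nearest were Per2, a clock repressor (0.187), Cd36, a fatty acid uptake receptor (0.189), Tlr5, the flagellin receptor (0.190), Zbed5 (0.220) and Slc5a6, the sodium-dependent carrier of biotin and pantothenate (0.221). The median over all rows was 0.58, and of the members themselves Srebf1 was nearest (0.149) and Thrsp furthest (1.55). Pklr (0.327), Fasn (0.409), Elovl6 (0.516) and Scd1 (0.564) were further from that mean profile than each of the named genes. Cd36 had normalized counts of 1109, 2040 and 1166 on chow and 5333, 3434 and 3748 on HFD, a ratio of 2.90. Its highest chow mouse was 695, as in Srebf1 and in 43.3% of the table's higher rows. The ratios of the others were 2.94 for Per2, 2.29 for Tlr5, 2.19 for Zbed5 and 2.50 for Slc5a6. When each gene was centred within each diet, so that the difference between diets no longer counted, 1 of these 5, Zbed5, was still among the nearest 5.

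Few other genes of lipogenesis were among the rows. Of 21 enzymes of fatty acid synthesis and its supply, the table held 3, all higher: Fasn, Elovl6 and Scd1. Acly, Acaca, Acacb, Me1, Elovl5, Fads1 and Fads2 were not among them, and their values are not analysed here. Of 19 lipogenic regulators it held 2, Srebf1 and Thrsp, both higher, and none of Mlxipl (which encodes ChREBP), Nr1h3 (LXRalpha), Scap, Insig1 and Insig2. None of 10 LXR targets outside lipogenesis and none of 11 genes of insulin signalling was a row. Fasn, Elovl6, Scd1, Srebf1 and Thrsp are members, so how the members were chosen fixed their presence and direction here. Higher rows make up 0.86% of the tested genes. The lists here and below were drawn up with earlier results known, so their counts are a description.

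Of 17 genes of glycolysis and carbohydrate response, 3 were rows and all 3 were higher: Pklr, Slc2a2 and Txnip. Pklr, as a member, was there by choice. Slc2a2, the glucose transporter of hepatocytes, had normalized counts of 2436, 5352 and 3703 on chow and 7950, 6518 and 6919 on HFD, a ratio of 1.86 (deposited adjusted p = 0.02869). Its lowest chow mouse was 670 and its highest 695, as in Pklr. Over the higher rows of the table, 670 was the lowest chow mouse in 46% and 695 the highest in 43.3%. Txnip, a redox-linked arrestin that responds to glucose, had 1347, 2122 and 1704 on chow and 4639, 3245 and 2474 on HFD, a ratio of 2.0 (deposited adjusted p = 0.007278). An antisense gene, Gm15441, overlaps Txnip, and their reads may not be told apart.

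Downstream, 1 of 12 genes of triglyceride assembly was a row, Mogat1, a monoacylglycerol acyltransferase, with normalized counts of 28.3, 19.2 and 13.3 on chow and 148.2, 65.7 and 102.0 on HFD, a ratio of 5.19 (deposited adjusted p = 3.98e-06). Of 14 genes of lipid droplets and fatty acid uptake, 5 were rows, 4 higher and 1 lower on HFD. The higher ones were Cd36, Pparg (1.64-fold), the droplet coat gene Plin4 (2.02-fold) and the lipase inhibitor gene G0s2 (2.17-fold). The lower one was Plin5, which ties droplets to mitochondria, at 1.85-fold lower.

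Sterol synthesis is the arm of the SREBP family governed by SREBP-2. Of 24 genes on that list only 2 were rows, and both were lower on HFD. Sqle, squalene epoxidase, had normalized counts of 509, 261 and 197.9 on chow and 165.4, 136.7 and 103.8 on HFD, 2.39-fold lower (deposited adjusted p = 0.01866). Cyp51, the lanosterol demethylase, had 1018, 1211 and 765 on chow and 557, 621 and 586 on HFD, 1.70-fold lower (deposited adjusted p = 0.01049). Neither gene overlapped between the diets. Srebf2 was not among the rows. One elongase row, Elovl2, which acts on polyunsaturated chains, was also lower, with 13275, 10454 and 15245 on chow and 9577, 6015 and 7133 on HFD (1.72-fold lower, deposited adjusted p = 0.0217). Elovl2 was named after its values were seen, as was Agpat1, an acyltransferase of phosphatidate synthesis that was 1.89-fold higher.

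Of 18 clock genes, 4 were rows, 2 higher and 2 lower on HFD. Those described here are Arntl, Per2 and Nfil3. Arntl, which encodes the activator BMAL1, had normalized counts of 480.7, 280.3 and 296.9 on chow and 136.5, 32.3 and 65.1 on HFD, 4.52-fold lower. Per2 had 172.9, 311 and 272.8 on chow and 704, 779 and 741 on HFD. Nfil3 was 2.39-fold lower. HFD mouse 669, lowest for 5 of the 6 lipogenic genes, was the lowest of its group for Arntl and the highest for Per2. Chow mouse 670, lowest for Srebf1, Thrsp and Pklr, was instead the highest for Arntl and the lowest for Per2. Mouse 669 was the middle HFD mouse for Srebf1, and mouse 670 was the middle chow mouse for Fasn, Elovl6 and Scd1. The labels give no time of day for sampling or feeding, and the part of the clock phase in the values of the 6 genes was not tested.

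**Figure D5:**
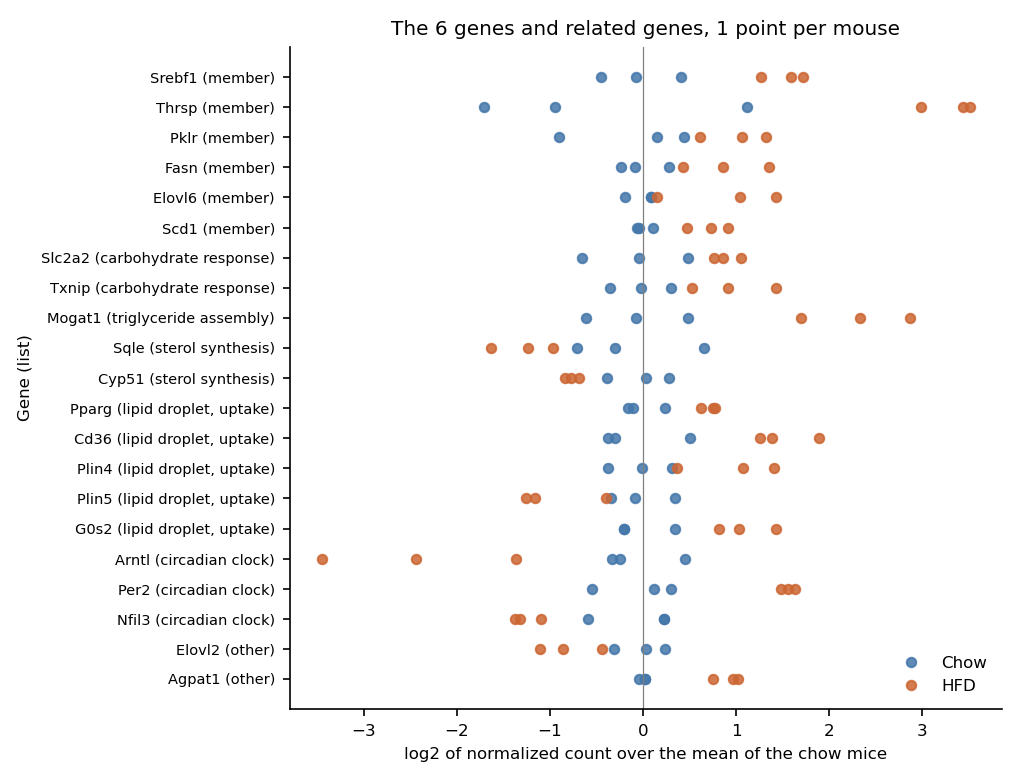
Log2 of the normalized count over the mean of the chow mice (x axis) for the 6 members, for the related genes named in the text and for Elovl2 and Agpat1 (y axis, with their list), 1 point per chow (blue) or HFD (orange) mouse. Orange points lie right of the blue ones in the 6 members and left of them in Sqle, Cyp51, Plin5, Arntl, Nfil3 and Elovl2.

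Only some markers of other liver cells were rows of the table, which lists genes that passed the diet test. Of 7 stellate cell genes, Col1a1, Col1a2 and Col3a1 were rows, and their summed normalized counts were 424 to 470 in the chow mice and 1363 to 2847 in the HFD mice. That sum was highest in HFD mouse 659, the mouse highest for Pklr and Fasn. It was lowest in 696, the mouse highest for Srebf1, Thrsp, Elovl6 and Scd1. Of 7 macrophage genes, Itgax and Mmp12 were rows (12.5 to 25.3 on chow and 71.2 to 119.3 on HFD), and of 6 lymphocyte genes Themis was a row (13.3 to 58.6 and 305.7 to 372). None of these was at 0 in any mouse. None of 7 adipocyte, 4 cholangiocyte and 4 endothelial genes was among the rows, and the remaining markers are not analysed here. The part of cell composition in the values of the 6 genes was not tested.

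A pair of loci next to or within the members were rows as well, named after their values were seen. Ccdc57 (chr11:120826529-120932872, minus strand) lies 1982 bases from Fasn and had normalized counts of 13.7, 23.0 and 20.5 on chow and 52.4, 59.2 and 65.1 on HFD, a ratio of 3.09 (deposited adjusted p = 0.002429). Gm43072 (chr3:129538141-129539811), an unverified transcript model on the strand of Elovl6 and inside 1 of its introns, had 15.6, 19.2 and 14.5 on chow and 50.6, 49.5 and 42.2 on HFD, a ratio of 2.89 (deposited adjusted p = 0.01142). Its raw counts in the HFD mice were 56, 46 and 48, too close to give an order of those mice. Whether its reads come from unspliced Elovl6 RNA was not tested.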

How the data were processed

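Liver RNA of 3 chow and 3 HFD mice was compared, with groups taken from the labels. The authors deposited raw read counts per gene and mouse, and, per the file headers, columns of their own test: a mean, a log2 fold change with its standard error, a p-value and its adjusted value. The submitters' processing notes name HISAT2, HTSeq, DESeq2, GRCm38 and mm10. For versions, settings and strand use, nothing is stated: each is not given in the sources used here. No count column was left unmatched (0 columns).

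The planned edgeR test presumed a table of all genes. Because the table holds 336 selected rows, the authors' adjusted p under 0.05 is the value reported, and edgeR and DESeq2 are alternatives. The number of tested genes (about 24990) was worked out from the ranks, p-values and adjusted p-values of the authors' deposited table. Size factors were solved from the authors' mean column (largest gap 0.00509 counts). Folds are ratios of mean normalized counts. Log2 values used a pseudocount of 1. Kilobases are unions of GENCODE M21 exons. Of the fits, only edgeR with the authors' size factors, without a filter, was tested on simulated data. With all mice, filterByExpr kept 330 of 336 rows. With 3 mice against 3 an exact permutation test cannot go below p = 0.1, so none was run. That the samples are separate animals rests on their numbers in the labels.

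The members and gene lists were chosen with earlier results of these data known. Genes named are the 6 members, the list genes that are rows, and the 5 rows nearest to the mean profile of the members with a mean normalized count of at least 50. Genes that this rule would name but that are absent from the text are not reported here. Elovl2, Agpat1, Ccdc57 and Gm43072 were named after their values were seen. Alternatives were other scalings, filters, thresholds, lengths and tools, and leaving out each mouse. Versions were R 4.3.3, edgeR 4.0.16, limma 3.58.1, DESeq2 1.42.0, Python 3.11.15, numpy 2.4.6 and pandas 2.3.3.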

Additional observations from a re-analysis of the deposited data

How the results depend on the processing

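All 6 genes kept HFD above chow under each of the 10 alternatives tried for their ratios. Leaving out a mouse or taking geometric means could not reverse a ratio, since every HFD mouse stood above every chow mouse. Of the 60 ratios, 55 stayed within the spread between mice; the 5 outside it were Srebf1 with TMM (1.87) and with DESeq2 size factors of the listed rows (1.85), Scd1 with the same scalings (1.05 and 1.04) and Thrsp without chow mouse 695 (24.3). With TMM, Pklr (1.31), Fasn (1.22) and Elovl6 (1.25) moved by over 1.5 times, which their wide spread between mice still covers. The median ratio was 1.28 with TMM and 1.27 with the DESeq2 size factors of the listed rows.

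The number of members past the threshold, 6 by the authors' adjusted p, was 2 at an adjusted p under 0.01 (60.5% of the 215 higher rows pass it), 1 with a log2 fold change of at least 1 (42.8%), 1 with Bonferroni adjustment (26.5%), 2 with edgeR and TMM (2 also without a filter), 2 with DESeq2, and 0 with edgeR and the authors' size factors. Leaving out each mouse in that edgeR fit gave 0 to 1, where the 1 was Thrsp without chow mouse 695 (adjusted p = 0.0295). These fits called 1 to 7 of the fitted rows higher. Members separate between diets numbered 2 with TMM (46.5% of the higher rows were) and 2 with DESeq2 size factors of the listed rows (44.2%), each time Srebf1 and Thrsp. They numbered 4 in raw counts (98.1% of the higher rows), without Fasn and Elovl6. They numbered 6 when any 1 mouse was left out (99.5% to 100%), which their separation over all mice fixes in advance. With no minimum count, 4 of the 5 nearest genes were shared, and centring within each diet left 1. With the longest transcript as length, Srebf1 and Elovl6 changed places. No paired analysis was possible because the groups share no mouse numbers. The selected rows limit all refits, and library depth is unknown.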
